A study of Mus musculus with 42 samples.

Results

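The naive pluripotency factors are nuclear proteins that keep mouse embryonic stem cells (mESC) in a state like that of the early inner cell mass. The 10 genes were chosen by name: Klf2, Klf4, Klf5, Esrrb, Tfcp2l1, Tbx3, Zfp42 (Rex1), Nr0b1 (Dax1), Dppa3 (Stella) and Prdm14. The rule itself used no measured value, but it was set with earlier results of these data known. All 10 were matched by symbol among the 14296 genes of the files, and all 10 had a mean of 0 log2 CPM or more, as 12911 of all genes did. In culture, leukaemia inhibitory factor (LIF) acts through the kinase Jak1 and the factor Stat3 on part of this set, and the factors bind and activate one another together with Pou5f1, Sox2 and Nanog. When LIF is removed the naive genes are shut down as cells pass through a formative state, in which Fgf5 and Otx2 are switched on, before they take up lineages. Several of the genes have a further expression domain later in the embryo, Dppa3 and Prdm14 in primordial germ cells and Tbx3 and Klf5 in other tissues.

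Gene expression was measured by stranded poly-A RNA sequencing in W9.5 cells, an mESC line from the mouse strain 129X1/SvJ, that differentiated spontaneously as embryoid bodies after LIF was withdrawn. Cultures were taken every 6 h from 0 h to 120 h, which gave 21 time points with 1 library of course A and 1 of course B at each, and the study describes these as biological duplicates of 1 line. No genetic change or added agent separated the groups, and whether feeder cells were used was not given in the sources used here. The values are log2 CPM, read counts scaled to the size of the library, with an offset of 0.5 reads. The 42 libraries held between 10120972 and 51652434 counted reads (median 29692082), so that 3 reads corresponded to between 0.0571 and 0.316 CPM. Members were counted with between 7 reads (Dppa3 at 54 h, replicate A) and 29811 reads (a library of Zfp42), so that counting error weighs most on Dppa3. At 96 h the duplicates stood apart, with 13.5% of all genes more than 1 log2 unit from each other, against 1.79% to 5.51% at the other times, and comparisons with 96 h are given without either of its libraries. At 0 h the stem cell markers Pou5f1, Sox2, Nanog and Utf1 summed to 2346 and 2630 CPM, and markers of feeder fibroblasts to 24.5 and 28.2 CPM over the 7 measured of 8 genes. Of the feeder sum Thy1 made up 19.3 and 22.1 CPM.

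Changes were tested with limma in a fit over all 42 libraries with time as a factor of 21 levels. A gene was called at an adjusted p (Benjamini-Hochberg over all genes) below 0.0001, the threshold of the study. Time points serve in several comparisons, so 0 h against 6 h, 24 h, 48 h and 120 h share the 0 h libraries and 48 h enters both the fall and the return. Since the RNA is from whole cultures, fewer cells that express a gene and less RNA per cell cannot be told apart in any value below.

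RefSeq promoter windows (GRCm38.p6, 250 bases before to 50 after the start site) were at hand for 6 of the 10 genes: Klf2, Klf4, Esrrb with 2 windows, Tfcp2l1, Zfp42 and Nr0b1. The upstream bases are shown for 4 genes of contrasting course: Zfp42, the most abundant factor, Nr0b1, with the strongest early rise, Tfcp2l1, which had none, and Esrrb, whose course ran close to most of the others. They are read 5′ to 3′ along the gene's strand, and capitals mark matches to the motifs searched.
Zfp42, chr8:43307010-43307259, minus strand: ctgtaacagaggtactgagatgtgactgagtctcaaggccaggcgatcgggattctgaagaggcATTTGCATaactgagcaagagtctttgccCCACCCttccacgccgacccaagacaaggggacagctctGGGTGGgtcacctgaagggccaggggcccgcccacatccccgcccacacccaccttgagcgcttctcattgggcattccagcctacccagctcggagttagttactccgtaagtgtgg
Nr0b1, chrX:86191525-86191763, plus strand: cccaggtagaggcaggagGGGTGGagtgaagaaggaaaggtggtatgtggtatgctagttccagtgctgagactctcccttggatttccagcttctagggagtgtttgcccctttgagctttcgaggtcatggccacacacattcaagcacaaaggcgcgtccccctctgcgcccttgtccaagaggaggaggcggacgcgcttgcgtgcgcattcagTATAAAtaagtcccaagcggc
Tfcp2l1, chr1:118627695-118627944, plus strand: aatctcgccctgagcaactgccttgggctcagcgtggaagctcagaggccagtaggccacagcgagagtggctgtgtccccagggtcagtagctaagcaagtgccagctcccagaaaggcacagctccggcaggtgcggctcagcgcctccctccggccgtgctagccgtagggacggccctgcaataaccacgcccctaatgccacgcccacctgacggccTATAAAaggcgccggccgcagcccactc
Esrrb, chr12:86360867-86361116, plus strand: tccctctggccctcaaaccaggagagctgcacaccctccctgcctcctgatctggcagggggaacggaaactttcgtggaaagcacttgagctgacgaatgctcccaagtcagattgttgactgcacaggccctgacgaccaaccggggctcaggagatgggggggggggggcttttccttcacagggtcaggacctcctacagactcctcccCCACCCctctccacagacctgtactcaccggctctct
The letters CCACCC or their reverse complement GGGTGG, a core that Kruppel-like factors bind, were in the windows of 4 of the 6 genes (Zfp42, Klf2, Esrrb and Nr0b1), against 31.5% of the 32851 windows of the same length. Members are counted here by gene, with a match in both windows of Esrrb, and the share of all is by window. In the Zfp42 window they stood at 157 and 118 bases before the start site. The octamer ATGCAAAT, bound by Pou5f1 and its relatives, was found as ATTTGCAT in Zfp42 alone (1.74% of all windows), 186 bases before the start site. The TATA box letters TATAAA were in Tfcp2l1 and Nr0b1 (13.6% of all windows), 28 and 32 bases before the start site. The Nr0b1 stretch shown holds 239 bases, because it was cut where the GENCODE gene begins. It therefore ends short of the RefSeq start site, from which the distances are counted. The letters AAGGTCA (bound by Esrrb, 4.72% of all windows), TTCCNGGAA (Stat3, 1.15%) and CTTTGAT (Tcf and Lef factors, 3.73%) were in none of the 7 windows. Both strands were searched and none of the motifs shares all its letters with another. These matches are letters and were not tested for binding.

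The question of the first comparison is how the factors responded as differentiation began. From 0 h to 6 h Nr0b1 and Zfp42 rose and Klf4 fell. Nr0b1 (chrX:86191764-86195947), an orphan nuclear receptor that lacks a DNA-binding domain of the usual kind and restrains other factors, was at 39.2 and 41.2 CPM at 0 h and at 205 and 218 CPM at 6 h. Both 6 h values were far above both 0 h values, and the difference was 2.40 ± 0.24 on the log2 scale (SE, adjusted p = 4.71e-09), or 5.26-fold. Zfp42 (chr8:43295063-43306980), a zinc finger protein of the Yy1 family used as a reporter of the naive state, went from 559 and 604 CPM to 1082 and 1062 CPM. Its difference was 0.88 ± 0.17 (adjusted p = 7.55e-05), close to the threshold. Klf4 (chr4:55527143-55532466), a Kruppel-like zinc finger activator downstream of Stat3, dropped in the same 6 h from 338 and 351 CPM to 139 and 138 CPM, or 2.48-fold (-1.31 ± 0.21, adjusted p = 5.52e-06).

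The other 7 factors did not pass the threshold at 6 h. Klf5 (chr14:99298691-99315036), a Kruppel-like factor with its own role in the inner cell mass and trophectoderm, had 200.3 and 175 CPM at 0 h and 554 and 469 CPM at 6 h (1.44 ± 0.29, adjusted p = 0.000137). Prdm14 (chr1:13113457-13127163), which recruits repressors to genes of the FGF pathway and of DNA methylation, had 25.3 and 25.9 CPM and then 54.9 and 55.2 CPM (1.11 ± 0.23, adjusted p = 0.000149). In both cases the groups did not overlap and the p lay just outside the threshold. Esrrb, Tbx3 and Klf2 were also higher at 6 h in both courses, by 0.60, 0.42 and 0.37, while Tfcp2l1 and Dppa3 differed by -0.14 and -0.05. In all, 2 factors were called higher, beside 11.8% of all genes, and 1 was called lower, beside 14.5%. Both 6 h values lay above both 0 h values for 7 factors. The share of all genes with such a separation was not taken, so this count has no background. The members' median difference was 0.51 and that of all genes -0.05. Between the same times surface epithelium markers went from 369 and 399 CPM to 766 and 802 CPM, with Krt8 from 42.3 and 48.5 CPM to 311 and 316 CPM, and neuroectoderm markers, mostly Nes, from 17.8 and 14.4 CPM to 63.3 and 57.7 CPM. Feeder fibroblast markers, mostly Thy1, went from 24.5 and 28.2 CPM to 12.4 and 12.2 CPM. Endothelium and blood markers, mostly Pecam1, went from 97.9 and 95.0 CPM to 47.1 and 49.6 CPM. Pecam1 is also listed below among the other naive or inner cell mass genes. The rest of that marker list did not fall together, with Gata1 lower and Kdr higher (0.02 and 0.23 CPM, then 3.72 and 3.41 CPM). The part of any such cells in the 6 h differences was not tested. Leaving out any of the 4 libraries left Nr0b1 alone, with adjusted p for Klf4 from 0.00013 to 0.000218 and for Zfp42 from 0.000675 to 0.00216. Zfp42 also missed the threshold with no normalization factor (0.67, adjusted p = 0.000595) and with no variance trend (adjusted p = 0.000198). Without 96 h replicate B, which enters only the estimate of the spread, Klf5 and Prdm14 passed as well (adjusted p = 8.1e-06 and 3.73e-06).

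The early peak was short for Prdm14. Its level went from 54.9 and 55.2 CPM at 6 h to 20.0 and 18.3 CPM at 12 h, below the 0 h values, which was the only call from 6 h to 12 h among the factors (-1.52 ± 0.23, adjusted p = 1.22e-05), beside 2.88% of all genes called lower. The call was lost without any of the 4 libraries of 6 h and 12 h (adjusted p from 0.000268 to 0.000667). For Nr0b1 the corresponding difference was -0.69 (adjusted p = 0.0368), and its level stayed at 126 and 136 CPM at 12 h.

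After 24 h the factors had separated. Nr0b1 was still above its start at 105 and 109 CPM (1.42 ± 0.24, adjusted p = 2.12e-05), the only factor called higher beside 9.90% of all genes. Klf4 was at 50.2 and 52.4 CPM, 6.71-fold below 0 h (adjusted p = 3.7e-11), and Prdm14 at 10.9 and 11.5 CPM, 2.29-fold below (adjusted p = 6.98e-05). These were the 2 factors called lower, beside 12.8% of all genes. The 0 h and 24 h values of each of the 3 did not overlap. Tfcp2l1 and Tbx3 had differences of -0.91 and -1.25 with adjusted p of 0.00024 and 0.000387, and with the replicate letter as a block, a paired fit, Tfcp2l1 passed (adjusted p = 9.11e-05). Zfp42 and Klf5 had differences of -0.28 and -0.20 (adjusted p = 0.166 and 0.574). Leaving out any of the 4 libraries left Klf4 alone, with adjusted p for Nr0b1 from 0.000383 to 0.000612 and for Prdm14 from 0.000923 to 0.00166. Without 96 h replicate B, 5 factors were called, Tfcp2l1 and Tbx3 in addition (adjusted p = 8.21e-05 and 6.86e-07).

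By 48 h 8 of the 10 factors had fallen, beside 15.6% of all genes called lower. Their median difference from 0 h was -2.67 over the 10, against 0.01 for all genes. Klf4 had 8.84 and 9.31 CPM left, 37.9-fold below 0 h (-5.25 ± 0.21, adjusted p = 1.91e-17). Tbx3 (chr5:119670669-119684724), a T-box repressor, went from 209 and 219 CPM to 10.1 and 9.77 CPM, or 21.5-fold (adjusted p = 2.33e-13). Prdm14 was at 1.48 and 1.44 CPM, 17.5-fold below its start (adjusted p = 1.63e-14). For these 3 the duplicates at 48 h were nearly equal and lay far under every value of the first 24 h.

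The remaining 5 that fell kept more of their RNA. Tfcp2l1 (chr1:118627945-118685168), a grainyhead-related activator and a main target of Stat3, went from 446 and 419 CPM to 51.9 and 46.3 CPM, or 8.82-fold (adjusted p = 1.49e-13). Esrrb (chr12:86361117-86521628), an orphan nuclear receptor that can stand in for Nanog, went from 475 and 437 CPM to 70.4 and 69.4 CPM, or 6.52-fold (adjusted p = 3.25e-11). Klf2 (chr8:72319033-72321656), a Kruppel-like factor whose protein is removed on FGF and Erk signalling, fell from 84.1 and 105 CPM to 14 and 16.3 CPM, or 6.23-fold (adjusted p = 9.66e-08). The reductions of Zfp42, to 119 and 117 CPM, and of Klf5, to 47.6 and 41.1 CPM, were 4.93-fold and 4.24-fold (adjusted p = 7e-12 and 7.6e-07). Nr0b1 was at 33.7 and 36.7 CPM, close to its 0 h values (-0.19 ± 0.24, adjusted p = 0.501). Dppa3 (chr6:122626410-122630272), a maternal factor that protects DNA methylation and is present in a few naive cells, had 1.55 and 1.85 CPM at 0 h and 0.680 and 0.479 CPM at 48 h, which were 19 and 13 reads (-1.57 ± 0.38, adjusted p = 0.000876). None of the counted calls from 0 h to 48 h was lost when any of the 4 libraries was left out. Between these times endothelium and blood markers went to 16.4 and 15.5 CPM and feeder fibroblast markers, mostly Thy1, to 9.23 and 7.96 CPM. Trophoblast markers went from 23.3 and 22.7 CPM to 9.0 and 8.94 CPM. The endothelium and blood change was mostly Pecam1, from 94.6 and 91.6 CPM to 8.1 and 8.3 CPM. Tek, Etv2 and Tal1 were higher at 48 h and Gata1 was lower. The trophoblast change was mostly Tfap2c, from 15.3 and 13.9 CPM to 1.34 and 1.08 CPM, with Krt7 higher and Ascl2 lower. Pecam1 and Tfap2c are also listed below among the other naive or inner cell mass genes. The part of such cells in the fall was not tested.

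**Figure D1:**
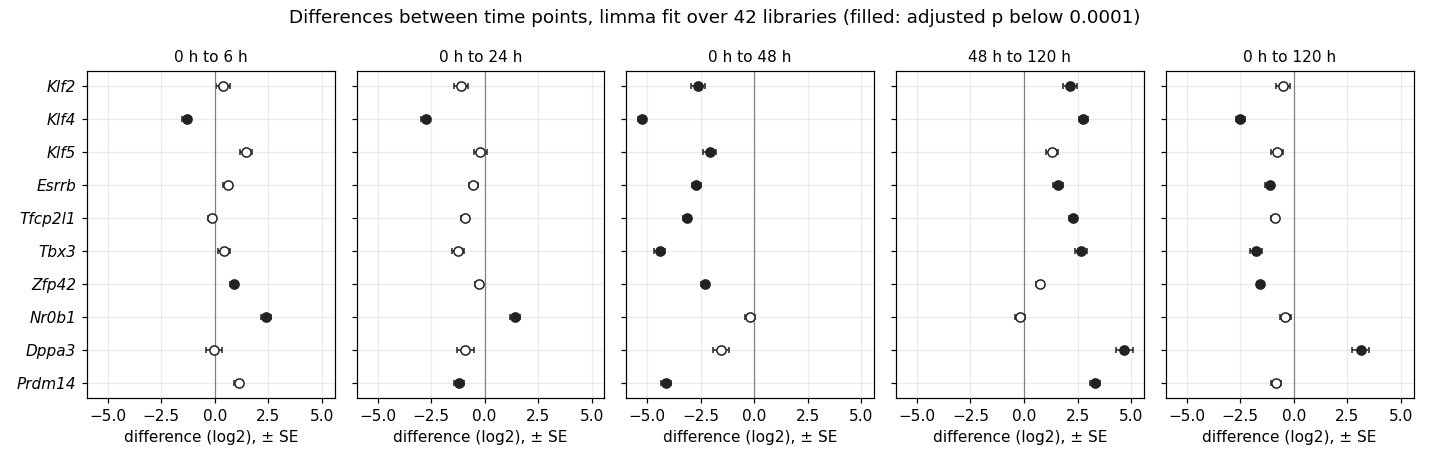
Differences between time points (log2) with their standard error for the 10 factors in 5 comparisons, 2 libraries per time point, with filled points for an adjusted p below 0.0001. From 0 h to 48 h 8 factors were lower and from 48 h to 120 h 7 were higher, and against 0 h the only calls of a higher level are Nr0b1 and Zfp42 at 6 h, Nr0b1 at 24 h and Dppa3 at 120 h.

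The second day carried a called fall for 8 factors, and Klf4 and Prdm14 had also been called lower on the first. From 24 h to 48 h all except Klf2 and Dppa3 fell, beside 3.70% of all genes called lower, with a median over the 10 of -2.10. The largest were Tbx3 (-3.17), Prdm14 (-2.94) and Klf4 (-2.50), and Nr0b1 fell here too (-1.61, adjusted p = 8.06e-06) although its difference from 0 h to 48 h did not pass. With the replicate block Klf2 passed as well (-1.54, adjusted p = 1.53e-05 in place of 0.000544). The mean of 9 of the 10 factors was lower after each of the 4 steps of 6 h between 24 h and 48 h, and that of Dppa3 was lower after 3 of them and higher from 30 h to 36 h. With all libraries, no single step between 12 h and 108 h carried a call for any factor. Over the 20 steps the factors were called 5 times in 3 steps, the others being the 3 calls from 0 h to 6 h and the return of Prdm14 after 108 h.

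The order of the decline was described by the time at which a level passed below 50% of 0 h, interpolated on the log2 scale for each course. Klf4 passed it after 4.70 h in course A and 4.45 h in course B. Prdm14 followed at 20.7 h and 17 h, Tbx3 at 20.1 h and 21.7 h, Klf2 at 23.5 h and 22.9 h, and Tfcp2l1 at 24.9 h and 25.1 h. Esrrb passed it at 30.2 h and 30.8 h, Zfp42 at 35.4 h and 33.9 h, and Klf5 at 35.0 h and 35.6 h. Nr0b1 was last at 60.5 h and 58.8 h. These times are set against 0 h, so for a factor that rose by 6 h they also depend on that rise. Nr0b1 itself went from 205 and 218 CPM at 6 h to 105 and 109 CPM at 24 h. The neighbours Prdm14 and Tbx3 overlapped between courses, as did Zfp42 and Klf5, while the other neighbours in this order did not. Dppa3 could not be placed, since its courses passed 50% at 17.1 h and 28.8 h. The fall to 25% of 0 h came at 16.1 h for Klf4, 31.3 h for Tbx3, 32.5 h for Prdm14, 36.8 h for Tfcp2l1, 40.0 h for Esrrb, 40.6 h for Klf2, 45.4 h for Zfp42, 46.6 h for Klf5 and 80.4 h for Nr0b1, from the mean of the duplicates. Against the order at 50%, Prdm14 came after Tbx3 and Klf2 after Tfcp2l1 in both courses. Klf2 (39.3 h and 42.9 h) overlapped with Esrrb (39.9 h and 40.1 h) between courses, and Klf5 (47.4 h and 41.5 h) with Zfp42 (45.6 h and 45.3 h).

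**Figure D2:**
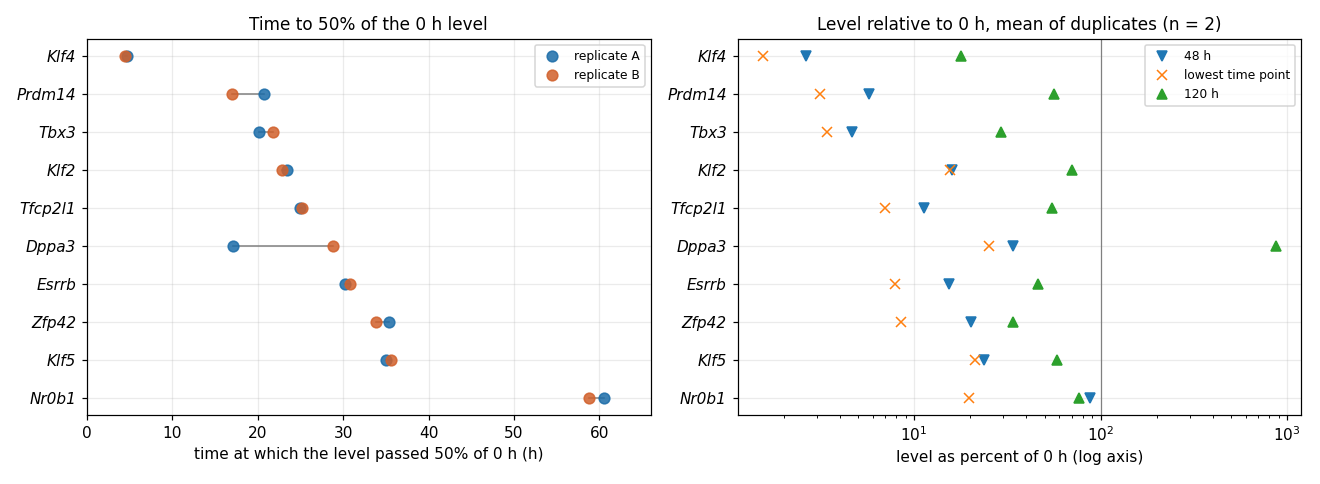
Left, the time (h) at which each factor passed below 50% of its 0 h level in replicate A (blue) and replicate B (orange). Right, the level at 48 h, at the lowest time point and at 120 h as a percent of 0 h on a log axis (mean of 2 libraries), from Klf4 at 2.64% to Nr0b1 at 87.4% at 48 h, with Dppa3 alone above 100% at 120 h.

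The lowest means came between 60 h and 90 h. Tbx3, Prdm14 and Dppa3 were lowest at 60 h, Tfcp2l1 at 66 h, Klf4 and Klf5 at 72 h, Klf2, Esrrb and Nr0b1 at 84 h and Zfp42 at 90 h. At its lowest point Klf4 kept 1.55% of its 0 h level, Prdm14 3.13%, Tbx3 3.42%, Tfcp2l1 7.02%, Esrrb 7.93%, Zfp42 8.46%, Klf2 15.5%, Nr0b1 19.7%, Klf5 21.3% and Dppa3 25.3%. From 48 h to 72 h Nr0b1 was the only factor called lower (-1.57 ± 0.24, adjusted p = 1.24e-05), from 33.7 and 36.7 CPM to 11.6 and 12.0 CPM, beside 3.78% of all genes. Zfp42 at -0.87 had an adjusted p of 0.000214, and of 8.72e-05 with the replicate block, which makes 2 calls in place of 1. All 10 means were lower at 84 h than at 78 h, by 0.19 to 0.93, and none of these steps passed the test.

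Between 48 h and 120 h 7 factors rose again, beside 14.2% of all genes called higher, with a median difference of 2.20 over the 10 and 0.0031 over all genes. Dppa3 had the largest, from 0.680 and 0.479 CPM to 12.8 and 16.8 CPM (4.69 ± 0.38, adjusted p = 6.03e-11). Prdm14 reached 14.6 and 14.1 CPM, 9.84-fold above 48 h (adjusted p = 2.02e-12). Klf4 reached 63.4 and 59.7 CPM (6.78-fold) and Tbx3 63.7 and 61.2 CPM (6.27-fold), with adjusted p of 1.27e-11 and 6.64e-09. Tfcp2l1 rose to 247 and 227 CPM (4.84-fold), Klf2 to 63.7 and 69.0 CPM (4.39-fold) and Esrrb to 210.5 and 209 CPM (3.0-fold), with adjusted p of 1.19e-10, 3.5e-06 and 6.11e-07. For each of the 7, both 120 h values lay above both 48 h values.

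The other 3 did not pass. Klf5 had 103 and 117 CPM at 120 h (1.31 ± 0.29, adjusted p = 0.000415), Zfp42 196 and 199 CPM (0.75 ± 0.17, adjusted p = 0.000532), and Nr0b1 29.0 and 32.4 CPM (-0.20 ± 0.24, adjusted p = 0.511). Zfp42 and Klf5 did not overlap with their 48 h values, whereas Nr0b1 was a little under them. Without 96 h replicate B, Klf5 and Zfp42 passed (adjusted p = 3.05e-05 and 2.74e-06), and 9 factors were called. Without 48 h replicate A or 120 h replicate B, Klf2 missed the threshold (adjusted p = 0.000201 and 0.00016).

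Summed levels of several cell type markers were also higher at 120 h than at 48 h. The list for primordial germ cells holds Dppa3 and Prdm14 themselves, and without them the other 7 genes summed to 62.3 and 58.6 CPM at 48 h and 176 and 179.7 CPM at 120 h. Most of that increase was Tfap2c, which is shared with trophoblast, from 1.34 and 1.08 CPM to 82.7 and 86.6 CPM. The remaining 6 (Prdm1, Nanos3, Dnd1, Dazl, Ddx4 and Kit) summed to 60.9 and 57.5 CPM and to 93.6 and 93.1 CPM, with Nanos3 at 0.71 and 1.01 CPM at 120 h. Trophoblast markers, 6 of 7 measured, summed to 9.0 and 8.94 CPM and to 137 and 149.7 CPM. Tfap2c was most of the 120 h sum, with Cdx2, Hand1, Gata3 and Krt7 also higher than at 48 h and Ascl2 lower. Trophoblast was followed by surface epithelium, whose markers, 4 of 7 measured, summed to 442 and 473 CPM and to 2194 and 2350 CPM. Of the latter list, Epcam held most of the sum at 48 h (368 and 396 CPM) and was lower at 120 h (268 and 291 CPM), whereas Krt8 went from 23.9 and 24.2 CPM to 1033 and 1109 CPM. Primitive streak markers, 4 of 5 measured, summed to 20.9 and 20.0 CPM at 48 h and to 80.8 and 70.9 CPM at 120 h. Primitive endoderm markers, 6 of 9 measured, went from 13.9 and 13.8 CPM to 47.2 and 47.9 CPM, feeder fibroblast markers from 9.23 and 7.96 CPM to 181 and 166 CPM, and neuroectoderm markers, 3 of 4 measured, from 32.2 and 30.3 CPM to 201 and 186 CPM. Within the feeder list Thy1, its largest gene at 48 h, was lower at 120 h (5.95 and 4.88 CPM, then 3.46 and 3.61 CPM). The rise of that list was mostly Acta2, to 76 and 71 CPM, and Col1a1, from 2.32 and 2.32 CPM to 61.5 and 58.1 CPM. Endothelium and blood markers, 6 of 8 measured, summed to 16.4 and 15.5 CPM and to 23.3 and 21.6 CPM. The rise was mostly Pecam1, from 8.1 and 8.3 CPM to 14.1 and 14.4 CPM, and Kdr, from 0.09 and 0.2 CPM to 5.99 and 4.44 CPM. Tek, Etv2 and Tal1 were lower at 120 h, and Gata1 was higher but under 1 CPM. The 4 stem cell markers that are no members summed to 1927 and 2104 CPM at 48 h and to 1244 and 1206 CPM at 120 h. Of these, Pou5f1 (986 and 1132 CPM, then 401 and 385 CPM) and Utf1 were lower at 120 h. Nanog was higher (124 and 133 CPM, then 352 and 339 CPM), and Sox2 changed little (351 and 351 CPM, then 359 and 340 CPM). The only gene of the 2-cell-like list in the files, Zfp352, was under 1 CPM at both times. The part of these cell types in the return of the factors was not tested.

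At 120 h 5 factors differed from 0 h. Dppa3 alone was higher, at 12.8 and 16.8 CPM against 1.55 and 1.85 CPM, or 8.69-fold (3.12 ± 0.38, adjusted p = 9.62e-08), beside 12.9% of all genes called higher. Klf4, Tbx3, Zfp42 and Esrrb were lower, by -2.48, -1.78, -1.56 and -1.12 on the log2 scale (adjusted p = 8.63e-11, 4.56e-06, 1.41e-08 and 8.72e-05), beside 10.1% of all genes. As a percent of 0 h, Klf4 stood at 17.9%, Tbx3 at 29.2%, Zfp42 at 34.0% and Esrrb at 46.0%. Tfcp2l1 (54.8%), Prdm14 (56.2%), Klf5 (58.6%), Klf2 (70.4%) and Nr0b1 (76.3%) did not pass, with adjusted p from 0.000407 (Tfcp2l1) to 0.201 (Klf2). Esrrb and Tbx3 lost their call without any of the 4 libraries (adjusted p of 0.000854 or more for Esrrb and 0.000114 or more for Tbx3), which left 3 calls, and Esrrb also with size factors from median ratios (0.000105) and with no variance trend (0.000243).

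The duplicates disagreed at 96 h for most of the factors. Replicate B was above replicate A for 9 of the 10, with a median difference of 1.14 on the log2 scale, and Dppa3 was the exception (-0.40). Tbx3 had 25.6 CPM in replicate A and 77.2 CPM in replicate B, Klf2 26.4 and 80.7 CPM, Klf5 41.0 and 101 CPM, Nr0b1 10 and 25.6 CPM, and Esrrb 62.5 and 145 CPM. Set against the mean of 90 h and 102 h of the same course, the factors in replicate B were higher by a median of 1.12, with 6 of 10 over 1, against 5.34% of all genes. In replicate A the median was 0.33 and none was over 1, against 1.16% of all genes. At 102 h replicate B was above replicate A for 6 of 10 (median 0.05). The factors were also above replicate A, by less, in replicate B of 90 h (10 of 10, median 0.48), 108 h (9 of 10, median 0.36) and 114 h (9 of 10, median 0.31). The 96 h pair held between 2.64% (Dppa3) and 65.6% (Tbx3) of a factor's squared differences between duplicates over the 21 time points, and over 50% for Esrrb, Tbx3, Zfp42, Nr0b1 and Prdm14.

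**Figure D3:**
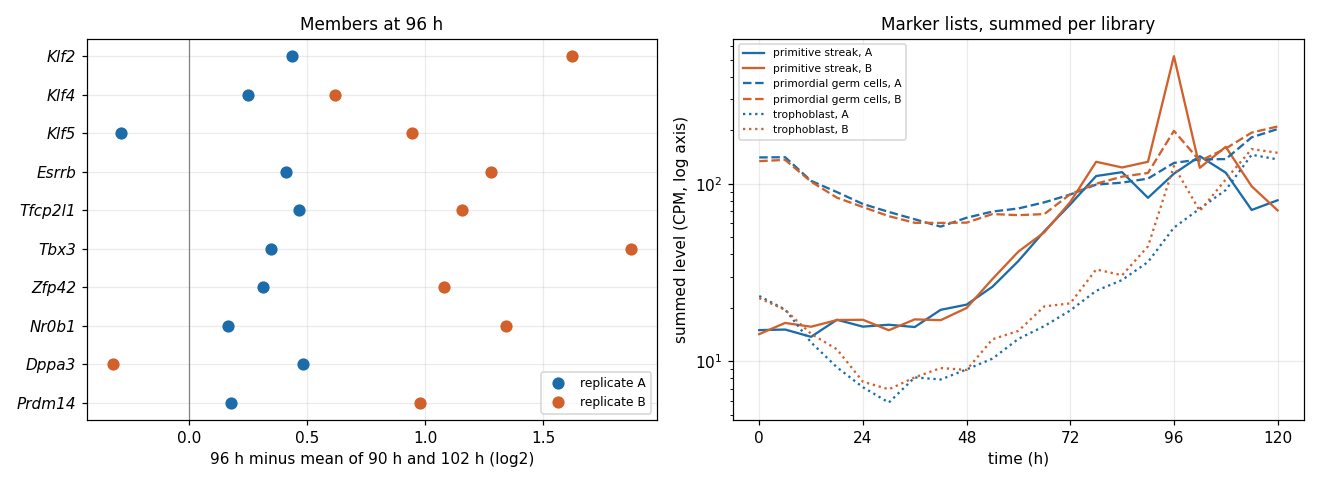
Left, the level at 96 h minus the mean of 90 h and 102 h (log2) for each factor in replicate A (blue) and replicate B (orange), from -0.32 (Dppa3) to 1.87 (Tbx3) in replicate B. Right, the summed level (CPM, log axis) of 3 marker lists in each library against time (h), with primitive streak markers at 114 CPM in replicate A and 524 CPM in replicate B at 96 h.

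Some markers of other cells were also higher in 96 h replicate B than in replicate A, and others were not. Primitive streak markers (T, Mixl1, Eomes and Wnt3, with Mesp1 not in the files) summed to 114 CPM in replicate A and 524 CPM in replicate B at 96 h, and to between 83.4 and 143 CPM in the 4 libraries of 90 h and 102 h. Trophoblast markers summed to 56.7 and 126 CPM at 96 h, of which Tfap2c was 34.3 and 80.4 CPM. Germ cell markers without the members Dppa3 and Prdm14 summed to 125.7 and 191 CPM, and without Tfap2c, which is in both lists, to 91.4 and 110.7 CPM. Primitive endoderm markers were at 32.0 and 52.1 CPM and those of endothelium and blood at 9.94 and 17.6 CPM. In the primitive endoderm list Dab2 was lower in replicate B (17.49 and 12.55 CPM) and the other measured genes were higher. Most of the endothelium and blood difference was Kdr (1.37 and 7.85 CPM), with Pecam1 at 6.14 and 7.32 CPM and Gata1 lower in replicate B. The sums of surface epithelium (1034 and 1092 CPM) and neuroectoderm markers (116 and 124 CPM) differed less, but their genes did not move together. Krt8 was higher in replicate B (294 and 431 CPM), and Krt18, Cldn4 and Epcam were lower. Nes was higher (103 and 120 CPM), and Sox1 (12.3 and 3.88 CPM) and Pax6 were lower. Feeder fibroblast markers (27.3 and 15.8 CPM) and Zfp352 of the 2-cell-like list (0.881 and 0.473 CPM) were lower in replicate B. Within the feeder list Col1a1 and Thy1 were lower, and Acta2 and Twist2 were higher. The stem cell markers other than Zfp42 summed to 1085 and 1656 CPM. Most of that difference was Pou5f1 (424 and 823 CPM), with Nanog and Utf1 also higher in replicate B and Sox2 lower (237 and 215 CPM). The part of these cells in the difference between the duplicates was not tested.

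From 72 h to 96 h Klf4, Tfcp2l1, Tbx3 and Prdm14 rose, by 1.53, 1.45, 1.88 and 1.45, beside 2.39% of all genes called higher. With the replicate block Esrrb joined them (1.26, adjusted p = 4.53e-05). The call rested on which library stood for 96 h: without replicate A 8 factors were called, beside 4.35% of all genes, and without replicate B none was, beside 1.71%, with Klf4 at 1.19 (adjusted p = 0.000438). From 96 h to 120 h Klf4, Tfcp2l1, Dppa3 and Prdm14 rose, by 1.99, 1.26, 2.63 and 1.85, beside 1.25% of all genes. Without replicate B 7 factors were called, beside 1.5% of all genes, and without replicate A 3 (Klf4, Dppa3 and Prdm14), beside 2.18%. With replicate A left out, 8 factors were higher at 96 h than at 90 h, beside 2.95% of all genes, and 4 were lower at 102 h than at 96 h, beside 2.65%. With replicate B left out, none was called in either step. In these fits the lone 96 h library is assumed to vary like the others.

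The late rise was spread over several steps. Prdm14 alone passed in a step of 6 h, from 3.0 and 4.23 CPM at 108 h to 9.14 and 11.2 CPM at 114 h (1.5 ± 0.23, adjusted p = 3.6e-05), beside 0.986% of all genes called higher. This call too was lost without any of the 4 libraries of the step (adjusted p from 0.000162 to 0.00313). Dppa3 went from 4.29 and 4.95 CPM to 10.2 and 13.1 CPM in the same step (1.33). For 7 of the 10 factors the mean was above that of the time point before at each of the 3 steps after 102 h, and the exceptions were Klf2, Klf5 and Zfp42.

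Levels were compared between the factors per kb of exon. At 0 h Zfp42 led with 309 ± 17 CPM per kb (SD, n = 2), followed by Klf4 at 113 ± 3.12, Esrrb at 75.5 ± 4.45, Klf2 at 51.3 ± 8.17, Tfcp2l1 at 45.8 ± 2.01, Klf5 at 36.1 ± 3.39, Tbx3 at 32.3 ± 1.06, Nr0b1 at 22.2 ± 0.80, Prdm14 at 9.97 ± 0.17 and Dppa3 at 1.90 ± 0.24. Only the neighbours Klf2 and Tfcp2l1 overlapped in this order. At 6 h Nr0b1 was second with 117 ± 5.23 CPM per kb, overlapping Esrrb at 114 ± 2.54, and Klf4 was sixth with 45.4 ± 0.32. At 48 h the order was Zfp42 (62.6), Nr0b1 (19.5), Esrrb (11.6), Klf5 (8.53), Klf2 (8.20), Tfcp2l1 (5.20), Klf4 (2.98), Tbx3 (1.5), Dppa3 (0.650) and Prdm14 (0.569), with overlap between Klf5 and Klf2 and between Dppa3 and Prdm14. At 120 h Zfp42 (105) again led, Klf2 (35.9) and Esrrb (34.7) overlapped behind it, and Dppa3 (16.6) overlapped with Nr0b1 (17) and Klf4 (20.2) with Klf5 (21.2). Zfp42 was thus the most abundant of the 10 at each of these times, and Klf4 went from second to seventh by 48 h. Reads of Zfp42 and Dppa3 could be shared with the pseudogenes Zfp42-ps1 and Dppa3-ps, and those of Tbx3 with the antisense gene Tbx3os1, since the strand setting of the counting was not given in the sources used here.

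Over the 21 time points the duplicate means of 8 factors ran close together, with a median Pearson r to the other 9 from 0.90 (Zfp42) to 0.94 (Esrrb and Tbx3). Nr0b1 (0.69) and Dppa3 (0.41) ran apart, and the lowest pair was these 2 with each other (-0.11). The closest pair was Esrrb and Zfp42 (0.98). Without 96 h replicate A or without replicate B these remained the closest and the lowest pair, and the median r of the 8 was from 0.90 to 0.94. These are descriptions, because successive points share cultures and a slow trend. The search was limited to genes whose mean was 0 log2 CPM or more. The course most like that of Esrrb was Sik1, a kinase (0.99), that of Klf5 was Nr5a2, a nuclear receptor of the same network (0.98), and that of both Klf4 and Tfcp2l1 was Tcl1, a coactivator of Akt kinase (0.97 and 0.98). Tbx3 was nearest to Ntn1, a secreted guidance protein (0.98), Prdm14 to Tbx3 (0.98), Zfp42 to Pcolce, an enhancer of collagen processing (0.99), Klf2 to Grhl3, an epithelial transcription factor (0.97), Nr0b1 to Ncoa3, a nuclear receptor coactivator (0.98), and Dppa3 to Arpc1b, a subunit of the Arp2/3 actin complex (0.95). The nearest gene was the same for 8 of the 10 factors without 96 h replicate A (not for Nr0b1 and Prdm14) and for 6 without replicate B (not for Klf4, Tbx3, Zfp42 and Dppa3).

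The rest of the network was read from lists of related genes, described by counts of calls and medians, with no test of a list. Over all genes, 14.8% were called higher and 15.6% lower from 0 h to 48 h, and 14.2% were called higher and 1572 of 14296 lower from 48 h to 120 h. Of the LIF and Stat3 arm, 5 of 9 genes fell from 0 h to 48 h and none rose (median -1.06), and 6 rose and 1 fell from 48 h to 120 h (median 1.08). Differences are on the log2 scale throughout. Its feedback inhibitor Socs3 changed by -4.67 and then by 4.21, the coactivator Bcl3 by -3.60 and 2.90, and Stat3 itself by -1.26 and 1.21, all called, whereas the kinase gene Pim3 was called in the fall alone (-1.15 and 0.97, adjusted p = 9.15e-05 and 0.00074). Klf4 and Tfcp2l1, the members closest to Stat3, had -5.25 and -3.14 and then 2.76 and 2.27. Of the other naive or inner cell mass genes, 27 of 28 in the files, 16 fell and 2 rose from 0 h to 48 h (median -1.77), and 8 rose and 7 fell afterwards (median 0.40). Tcl1 (-5.48), Jam2, a junctional adhesion molecule (-3.73), and Tfap2c (-3.60) were among the genes that fell most. After 48 h Tcl1 (2.57) and Tfap2c (6.13) rose, while Jam2 at 1.22 had an adjusted p of 0.000131.

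Of the 12 core pluripotency genes, from 0 h to 48 h 4 rose and 2 fell (median 0.40), and from 48 h to 120 h 1 rose and 6 fell (median -0.96). The 2 that fell to 48 h were a share near the 15.6% of all genes, and the 1 that rose afterwards a share below the 14.2%. Nanog changed by -1.88 and 1.43, both called, in the order of the members. Sox2 changed by -0.93 (adjusted p = 1.49e-08) and was at -0.0048 in the return (adjusted p = 0.973), and Pou5f1 was at 0.07 in the fall (adjusted p = 0.761) and fell by 1.43 on the log2 scale after 48 h. Zfp281, Lin28a and Rif1 rose by 1.60, 1.47 and 1.39 to 48 h.

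Of the 17 formative or primed genes, 15 were called higher at 48 h than at 0 h and none lower (median 3.15), beside 14.8% of all genes called higher. From 48 h to 120 h 4 rose and 9 fell (median -1.36), beside 1572 of all 14296 genes called lower. At 6 h against 0 h, however, 2 were called higher and 6 lower, beside 11.8% and 14.5% of all genes. Fgf5, the ligand that marks this state, was among the 6 (-1.31, adjusted p = 5.08e-07). From 0 h to 48 h Fgf5 rose by 7.39, Zic2 by 6.16, Lef1 by 5.98, Sox3 by 5.20 and Otx2 by 2.58. After 48 h Lef1 (-3.57), Sox3 (-2.46) and Otx2 (-1.36) fell, whereas Fgf5 (-0.24, adjusted p = 0.253) and Zic2 (-0.57, adjusted p = 0.000521) did not pass, and at 120 h Fgf5 was 7.15 above its 0 h level. In the repressor arm, the genes that act against the naive network, 6 of 14 rose and none fell from 0 h to 48 h (median 0.73), and 1 rose and 7 fell afterwards (median -0.61). Lef1, which is also counted in the formative list, Dusp6 (1.84), Tfe3 (0.84) and Mbd3 (0.82) led the rise. Tcf7l1, a repressor of Esrrb and Klf2 in mESC, was at 0.83 with an adjusted p of 0.00132.

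Relatives of the members were called in both directions. Of 11 other Kruppel-like factors in the files (of 14, without Klf1, Klf14 and Klf17), 2 rose and 4 fell from 0 h to 48 h (median -0.06), and 2 rose and none fell afterwards (median 0.07). The shares that rose were near those of all genes, 14.8% and 14.2%. Klf3 changed by -1.98 and 0.96 and Klf6 by 1.07 and 1.97, all called, and Klf7 by 1.62 and Klf8 by -1.10 in the fall. For comparison, Klf4, Klf2 and Klf5 had -5.25, -2.64 and -2.08. Of 8 paralogs of other members in the files (of 13), 2 rose and 2 fell to 48 h (median 0.09) and 3 rose and 2 fell afterwards (median 0.25). Esrra, the relative of Esrrb, changed by -1.20 and 0.99, and Tfcp2, the relative of Tfcp2l1, by -0.82 and 0.67, in the same directions as the member. Grhl2, which is also counted in the formative list (2.18 and -1.68), and Yy1, the relative of Zfp42 (0.81 and -0.41), were called in the opposite directions.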

How the data were processed

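The 42 libraries were grouped by the time point and replicate letter of their labels. Before deposit, the authors used Trim Galore for trimming, TopHat2 for alignment against mm10 and HTSeq for counts on GENCODE vM2 genes. The authors kept genes above 1 CPM in at least 2 samples and applied edgeR normalization and then voom. Versions were not given in the sources used here. The values deposited by the authors are log2 CPM, 1 file per library. They gave whole reads to within 2.9e-08 of a read. Columns of no sample numbered 0.

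Members and lists were matched to identifiers through GENCODE vM21 on GRCm38 (14177 of 14296 genes named), and exon lengths and coordinates are from it. The members and lists were chosen with earlier results of these data known. Named genes were all members, for each member the 3 genes with the most similar course (the nearest is printed), and from each list up to 4 called genes with the largest change from 0 h to 48 h, plus Pou5f1, Sox2, Nanog, Otx2, Fgf5 and Tcf7l1. A gene of these lists that the rule names is not reported here.

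Differences were tested with limma 3.58.1 in R 4.3.3 (lmFit, eBayes with trend) on the deposited log2 values, 21 residual degrees of freedom, Benjamini-Hochberg over all genes within a comparison. The fit was tested on simulated data. The letters A and B name the 2 culture courses in the study's design. As a check of that pairing, the correlation of residuals within a course averaged 0.0795, with 68.6% of the 210 correlations above 0. All libraries were prepared at the same time by the study's methods, and no batch was labelled. All p-values measure the spread between duplicates of 1 cell line. Intervals from reads cover counting error only. The SD between duplicates was from 0.18 (Zfp42) to 0.38 (Dppa3) for the members and 0.18 in the median of all genes. Alternatives were voom weights on the recovered reads, a replicate block, a filter on low values, an offset of 2 reads, other scalings, no variance trend, other thresholds and corrections, fits on 4 libraries and fits without each library. Figures were drawn with matplotlib 3.10.9 in Python 3.11.15.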

Additional observations from a re-analysis of the deposited data

How the results depend on the processing

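The counts of factors called from 0 h to 48 h (8) and from 48 h to 120 h (7) stayed within 1.5 times under all settings tried, at 8 to 9 and 6 to 9. From 0 h to 6 h the count of 3 became 5 at adjusted p below 0.01, 5 with only the 4 libraries of the comparison and 5 without 96 h replicate B, 2 with no normalization factor or no variance trend, and 1 to 5 as single libraries were left out. From 0 h to 24 h the count of 3 became 5 with no normalization factor, 6 at adjusted p below 0.01, 7 with the 4 libraries and 5 without 96 h replicate B, with 1 to 5 over single libraries. From 0 h to 120 h the count of 5 became 3 without any of the 4 libraries of 0 h and 120 h. The 5 calls over the steps of 6 h became 16 at adjusted p below 0.01 and ranged from 2 to 22 without single libraries, with 22 without 96 h replicate A, 10 without 96 h replicate B, 2 without either 6 h library and 3 without either library of 0 h or 12 h. The 17 calls between day ends became 28 at adjusted p below 0.01 and ranged from 12 to 23 over single libraries. The paired fit with the replicate block gave 3, 4, 8, 7 and 5 calls in the comparisons 0 h to 6 h, 24 h, 48 h, 48 h to 120 h and 0 h to 120 h, 5 over the steps and 20 between day ends, and the 4 calls it added are given with their results. No call was lost under it.

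Of the values of single factors in the 5 comparisons under the alternatives, 686 kept direction and side of the threshold, 32 passed it in addition, 30 no longer passed, and 2 changed sign. Both were the uncalled difference of Dppa3 from 0 h to 6 h (-0.05), which ranged from -0.39 to 0.29 over single libraries (0.29 without 6 h replicate A and 0.08 without 0 h replicate B). Without a normalization factor the median difference of all genes was -0.27, -0.20, -0.18, 0.18 and -0.04 in the 5 comparisons. In the main fit it was -0.05, -0.04, 0.01, 0.0031 and -0.02. No factor changed direction without the normalization factor. Alternatives for the steps and day ends, and all fits without 96 h libraries, were chosen after seeing the data. Where a library was left out, its partner was assumed to vary like the other groups. Depth limits Dppa3 most, with 7 reads at its lowest, and Prdm14, with 20.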
